A study of Mus musculus with 6 samples.

Results

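Genes that build, cap, bundle and take apart actin filaments were followed in SVI podocytes, a mouse line with conditional immortalization, after 3 days of cyclic stretch. The genes were chosen by name from a list of 53 that covers the Arp2/3 complex and its activators, formins and Ena/VASP proteins, proteins that bind actin monomers, capping, severing and bundling proteins, and the cofilin pathway with its kinases and phosphatases. Of these, 47 had a probe set with their symbol alone in the platform annotation and were measured, among 18193 genes in all. The other 6 (Arpc1b, Arpc3, Actr2, Cyfip1, Fmnl3 and Twf1) are not analysed here, and for Arpc1b and Twf1 the annotation lists 2 and 3 probe sets that carry a second gene symbol as well. Both groups were SVI podocytes from the kidney glomerulus that had differentiated for 1 to 2 weeks at 38 °C in medium with 10% serum. The unstretched group stayed at rest, and the stretched group was pulled along both axes at a frequency of 0.5 Hz, reaching at most 5% linear strain, and each group has 3 arrays. The cells are a cultured line, so other cells of the glomerulus and its blood flow are absent from the model.

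Actin filaments grow from monomers at their barbed ends. The Arp2/3 complex, switched on by WASP and WAVE proteins, starts branches on the sides of existing filaments, and formins and Ena/VASP proteins elongate unbranched ones. Profilin, thymosins, twinfilin and cyclase-associated protein hold and recycle monomers. Capping protein and gelsolin relatives block barbed ends, some gelsolin relatives also cut filaments, and fascin and plastins tie filaments into bundles. Cofilin, helped by Wdr1 (Aip1) and coronins, takes old filaments apart, LIM kinases switch cofilin off and slingshot phosphatases switch it on. In podocytes this machinery shapes the foot processes that cover the glomerular capillary.

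Arrays of the same group were alike, with Pearson correlations over all probe sets of 0.995 to 0.997 among stretched and 0.993 to 0.994 among unstretched arrays, against 0.987 to 0.990 between groups. The labels speak of 3 independent batches but leave unsaid what a batch was, and p-values here reflect array-to-array spread, part of which may be technical. The log2 difference between the 3′ and 5′ control probe sets of beta-actin is a sign of RNA quality, and it reads an actin transcript. It averaged 1.57 ± 0.03 without stretch and 1.30 ± 0.05 with it (SD, n = 3 each). The exact permutation p, two-sided, was 0.1, which is the lower limit for 3 against 3 arrays. The same difference for Gapdh, the other such control, was 0.25 ± 0.07 without stretch and 0.16 ± 0.10 with it, and its groups overlapped (exact permutation p = 0.4). Their part in the changes below was not tested. Of 10 podocyte markers measured, 1 rose (Nes, log2 change 0.57, limma adjusted p = 0.00182) and 1 fell (Synpo, an actin-associated protein of foot processes, -0.45, 0.00412), and the summed log2 level was 75.0 to 76.1 on unstretched and 75.7 to 76.3 on stretched arrays. Podxl read 7.95 ± 0.17 and Synpo 8.42 ± 0.05 in unstretched cells (log2, SD, n = 3), whereas Nphs1, which encodes nephrin, read 5.01 ± 0.14, below the median gene of the arrays. The macrophage and leukocyte list is relevant because Capg and Lcp1 are abundant in leukocytes. In that list 0 of 10 markers rose and 3 fell (limma), and the summed log2 level was 50.8 to 51.6 on unstretched and 48.4 to 48.9 on stretched arrays. Of these markers 9, Ptprc and Itgam among them, were below the median gene, whereas Csf1r read 8.88 ± 0.17 in unstretched cells. In the proximal tubule list, relevant to the brush border gene Vil1, 3 of 8 rose and 0 fell in limma. The genes that rose were Slc17a1 (log2 change 2.30), Aqp1 (2.09) and Cubn (0.49), and the others lay between -0.15 and 0.12. The summed log2 level of the list was 46.2 to 47.3 on unstretched and 51.1 to 52.7 on stretched arrays. In the parietal epithelium list 2 of 4 rose (Cldn1 and Pax8, both by 0.62) and 0 fell in limma, with sums of 20.6 to 21.2 and 21.6 to 22.1. Among mesangial and fibroblast markers 1 of 8 rose (Pdgfrb, log2 change 0.41) and 1 fell (Dcn, -1.50) in limma. The other markers of that list had changes between -0.16 and 0.35, and its sums were 54.8 to 55.2 and 53.9 to 54.7. Among endothelial markers the sums overlapped. Their part in the results was not tested.

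In stretched cells 15 of the 47 genes rose and 3 fell past the threshold (limma, Benjamini-Hochberg adjusted p under 0.05 over all genes), and 29 did not pass. Over all genes 7.98% were called higher and 6.76% lower. Rises made up 54.2% of all calls in the deposited scaling, 42.7% after quantile normalization again, 44.6% after cyclic loess and 61.8% with arrays centred on their medians. RNA was read in bulk, so fewer cells of a kind and less RNA per cell cannot be told apart. The median log2 change of the 47 genes was 0.13, against -0.02 over all genes tested. It was 0.07 against -0.01 after quantile normalization again, and 0.07 against -0.006 after cyclic loess. With arrays centred on their medians it was 0.16 against 0.01, and in a fit without dim genes 0.17 against 0.03. After quantile normalization again 12 of the 47 genes were higher and 4 lower, against 1149 and 1544 of all 18193 genes. Most of these genes were bright, with 42 of the 47 at or above the median gene, and in a fit on genes above that level 16 of 42 were higher and 3 lower, against 17.1% and 12.8% of all such genes. All 3 stretched arrays lay above all 3 unstretched arrays in 24 of the 47 genes and below them in 8. Over all genes such a lack of overlap was seen in 32.6%, with the stretched arrays above in 16% and below in 16.6%. The largest rises were in the WAVE subunit gene Wasf1, which was 2.27-fold higher, the capping protein gene Capg (1.74-fold), the formin gene Daam1 (1.69-fold) and the twinfilin gene Twf2 (1.62-fold). The genes that fell were Diaph2, Fmnl2 and Coro1b, by 0.52, 0.42 and 0.36 as falls on the log2 scale.

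**Figure D1:**
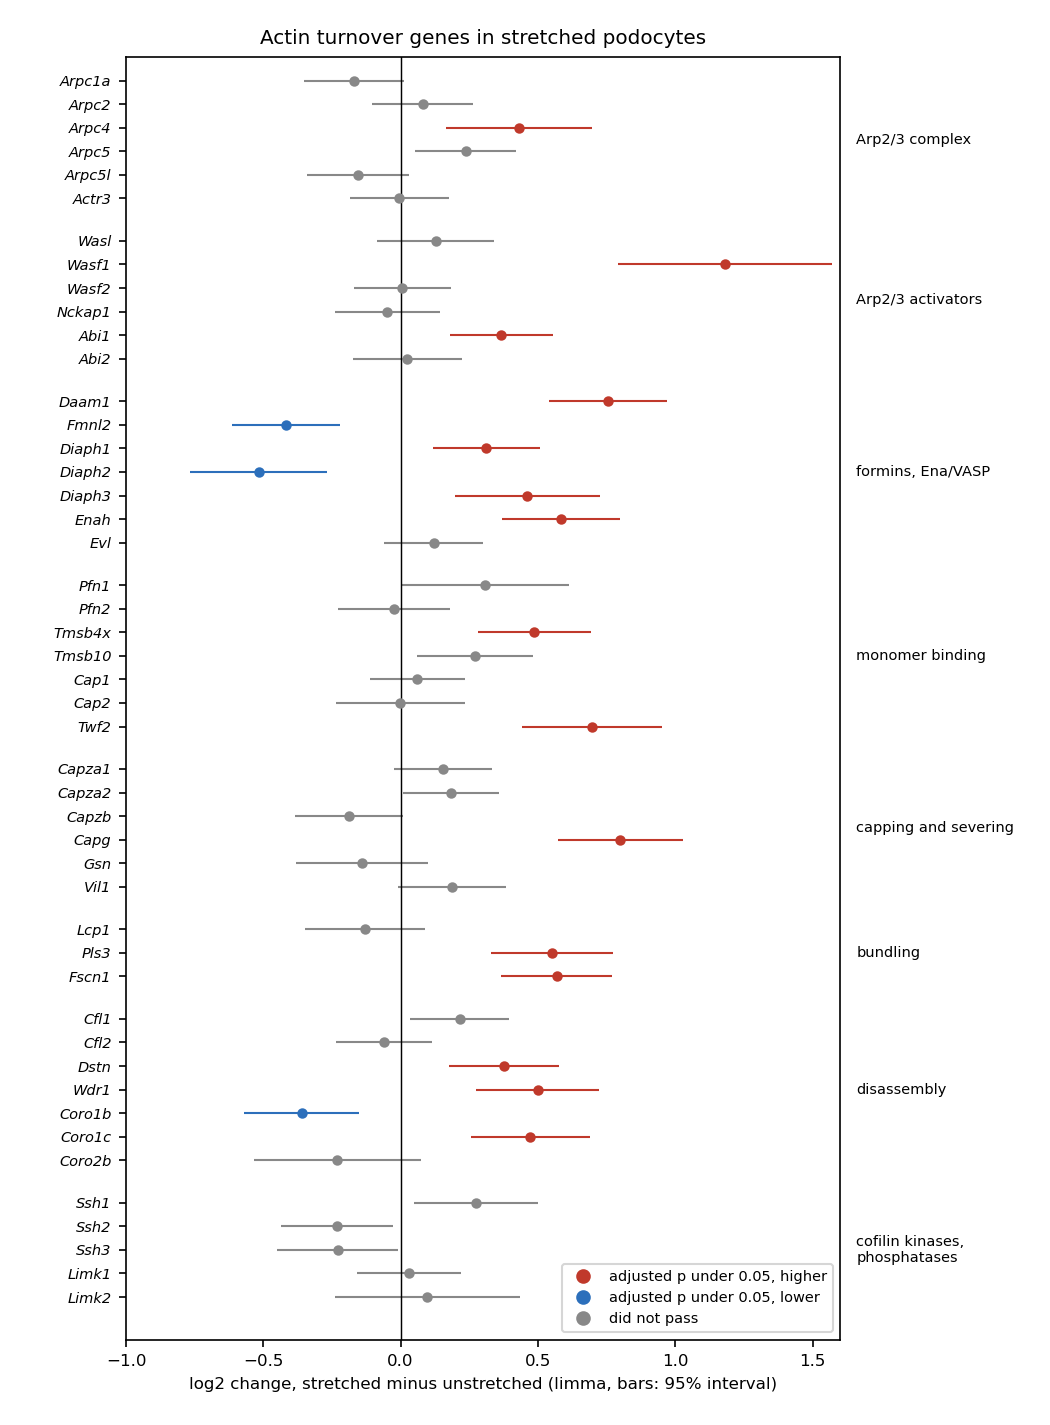
Log2 change, stretched minus unstretched, of the 47 genes by role, with the 95% interval of the limma fit (n = 3 arrays per group). Red points rose and blue points fell past the threshold. The formin and Ena/VASP group holds 4 red and 2 blue points, and the group of cofilin kinases and phosphatases holds 0 of either.

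**Figure D2:**
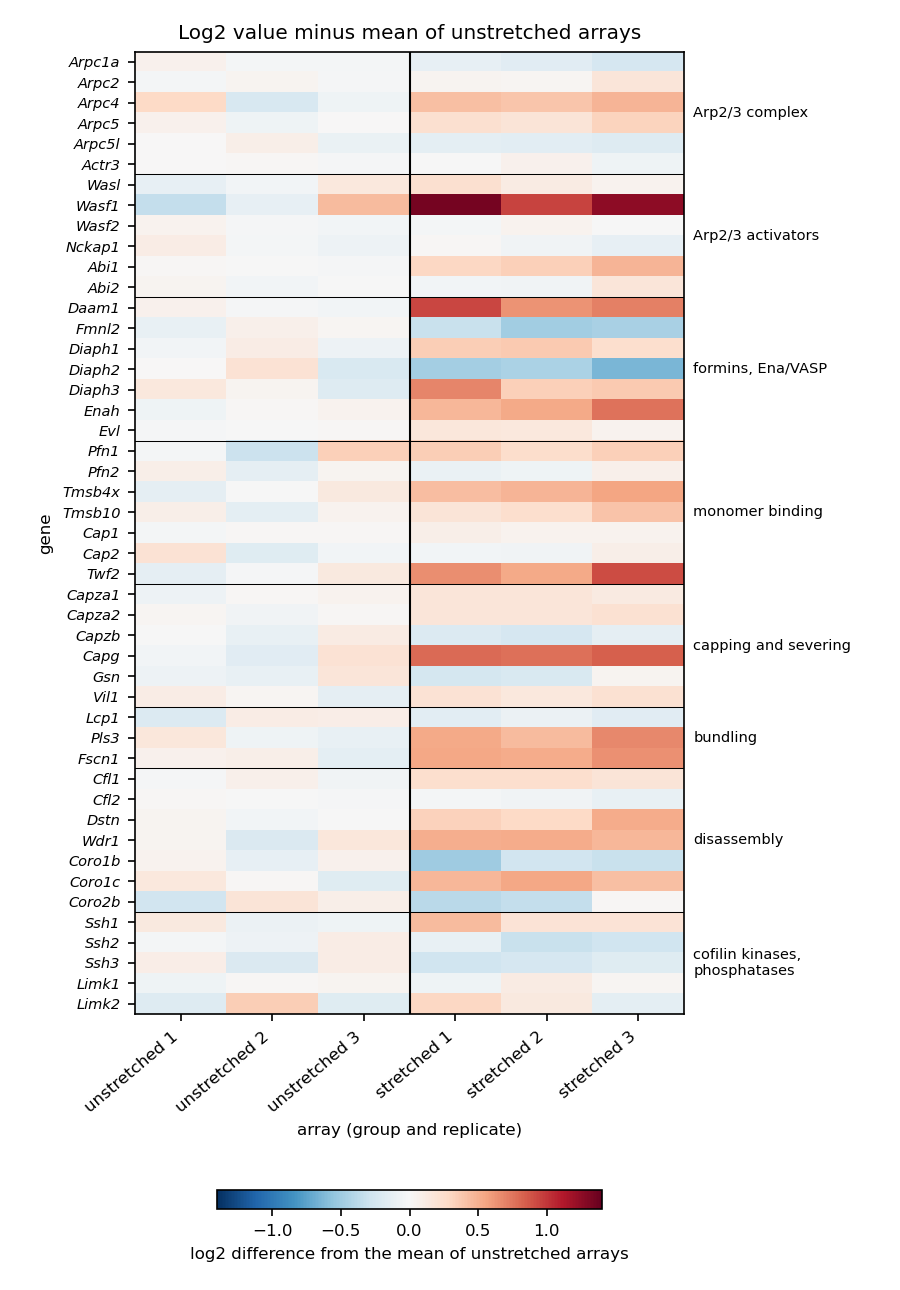
Log2 value on each array minus the mean of the unstretched arrays of that gene, by role (red higher, blue lower). Wasf1 is the darkest row, and its unstretched replicate 3 (6.32) lies nearest to the stretched arrays.

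The stretch of DNA before the annotated start is shown for 4 of the genes that changed. They hold a match to a motif of a factor family that acts downstream of actin and tension. The motifs were the CArG box of SRF, GGAATG of TEAD proteins and TGANTCA as a loose form of the AP-1 site. N stands for any base, and each motif was read on both strands. RefSeq promoter windows (GRCm38.p6, 250 bases before to 50 after a start) matched 41 of the 47 genes, 15 of them among the 18 that passed. A CArG box was found in windows of 2 of the 41 genes (Arpc4 and Vil1), against 1.81% of all genes with a window. GGAATG was found in 6 (Arpc2, Evl, Lcp1, Pfn1, Pls3 and Wasf1), against 16.6%, and TGANTCA in 2 (Diaph2 and Limk2), against 8.97%. In Diaph2 and Limk2 the match read TGAATCA, with A at the place of N. Of these 10 genes 4 passed the test, namely Arpc4, Wasf1, Pls3 and Diaph2. The matches are descriptions of the letters in these windows and not of binding. The 250 bases before the start are printed 5′ to 3′ on the strand of the gene, with matches in capitals; of the 3 windows of Pls3, all of which hold a match to GGAATG, the first is shown.
Arpc4, GRCm38.p6 chr6:113377863-113378112, plus strand: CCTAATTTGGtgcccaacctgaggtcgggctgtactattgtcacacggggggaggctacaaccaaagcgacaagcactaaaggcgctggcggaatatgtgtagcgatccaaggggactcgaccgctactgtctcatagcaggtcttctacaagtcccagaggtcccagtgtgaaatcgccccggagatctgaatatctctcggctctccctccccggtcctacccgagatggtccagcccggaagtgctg
Wasf1, GRCm38.p6 chr10:40883284-40883533, plus strand: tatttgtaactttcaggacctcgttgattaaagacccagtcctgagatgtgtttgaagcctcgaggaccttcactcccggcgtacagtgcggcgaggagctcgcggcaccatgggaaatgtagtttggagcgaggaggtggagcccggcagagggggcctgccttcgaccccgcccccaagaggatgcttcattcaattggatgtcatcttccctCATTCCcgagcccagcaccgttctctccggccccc
Pls3, GRCm38.p6 chrX:75875183-75875432, minus strand: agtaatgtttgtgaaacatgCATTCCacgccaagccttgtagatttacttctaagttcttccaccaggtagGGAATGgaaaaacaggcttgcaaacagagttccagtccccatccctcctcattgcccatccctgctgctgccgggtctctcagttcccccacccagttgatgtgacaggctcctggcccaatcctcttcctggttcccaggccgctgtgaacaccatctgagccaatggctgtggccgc
Diaph2, GRCm38.p6 chrX:129749492-129749741, plus strand: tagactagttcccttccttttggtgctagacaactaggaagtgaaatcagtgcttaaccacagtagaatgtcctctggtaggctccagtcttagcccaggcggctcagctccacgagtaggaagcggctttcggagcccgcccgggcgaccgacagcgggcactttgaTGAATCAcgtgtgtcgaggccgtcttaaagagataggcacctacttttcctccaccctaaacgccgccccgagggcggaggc
The CArG box of Arpc4 is at the far edge of its window, 250 bases before the start. The Wasf1 match is on the opposite strand and begins 35 bases before the start, and that of Diaph2 begins 82 bases before it. Pls3 holds 1 match on each strand, 230 and 179 bases before the start.

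Within the Arp2/3 complex, the branching machine itself, 1 of 6 measured subunits rose and 0 fell in limma, with a median log2 change of 0.04. Arpc4, a core subunit that holds the complex together, read 7.31, 6.81 and 6.97 on unstretched and 7.46, 7.42 and 7.51 on stretched arrays. Unstretched replicate 1 lay close to the stretched arrays, but the groups did not overlap. The log2 change was 0.43 (SE 0.12, limma adjusted p = 0.0346). That call ended without unstretched replicate 2 (adjusted p = 0.114) or 3 (0.0787), without stretched replicate 1 (0.0953), 2 (0.0762) or 3 (0.113), with quantile normalization again (0.0558), with cyclic loess (0.0517) and with the gene's 2 probe sets averaged (0.0588). Neither paralog of the fifth subunit passed. For Arpc5 the log2 difference was 0.24 ( adjusted p = 0.0891), whereas the value for Arpc5l was -0.16 (adjusted p = 0.261). The difference of their changes was 0.39 (SE 0.09, exact permutation p = 0.1). Arpc5 itself passed in a fit without dim genes (adjusted p = 0.0496) and with a trended, robust prior (0.0185). The other 3 subunits, Arpc1a, Arpc2 and Actr3, had log2 changes between -0.17 and 0.08.

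Of the activators of the complex, 2 of 6 rose and 0 fell in limma, and both belong to the WAVE complex, which drives lamellipodia. Wasf1 (WAVE1) read 5.55, 5.77 and 6.32 on unstretched and 7.22, 6.83 and 7.13 on stretched arrays. Its unstretched arrays spread more widely than those of the other genes that passed, with an SD of 0.40, and still lay below all stretched arrays. Wasf1 rose by 1.18 on the log2 scale (SE 0.18, limma adjusted p = 0.00149), with a 95% interval of 0.79 to 1.57. Its paralog Wasf2 (WAVE2) had a log2 change of 0.01 (SE 0.08, 95% interval -0.17 to 0.18). The difference between the changes of Wasf1 and Wasf2 was 1.17 (SE 0.29, exact permutation p = 0.1).

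Abi1, an adaptor of the WAVE complex, read 8.91, 8.88 and 8.88 on unstretched and 9.17, 9.23 and 9.37 on stretched arrays. The unstretched values were nearly equal, and stretched replicate 3 was the highest. The log2 change was 0.37 (SE 0.09, limma adjusted p = 0.0154), and 2 of its other 3 probe sets also passed, with changes of 0.46 and 0.34. Without stretched replicate 3 the adjusted p was 0.0673. Abi2, its paralog, had a change with a 95% interval of -0.17 to 0.22, and the changes of Abi1 and Abi2 differed by 0.34 (SE 0.03, exact permutation p = 0.1). Nckap1, another WAVE subunit, and Wasl (N-WASP), which acts outside the WAVE complex, did not pass, at -0.05 and 0.13. A dimmer probe set of Wasl had a log2 change of 0.40 and passed when every probe set was tested (adjusted p = 0.0127).

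Formins and Ena/VASP proteins, which elongate unbranched filaments, had 4 of 7 measured genes higher, 2 lower and 1 not passed. Daam1, a formin of the planar cell polarity pathway, read 5.89, 5.805 and 5.79 on unstretched and 6.76, 6.45 and 6.53 on stretched arrays. The unstretched arrays lay close together and the stretched arrays, led by replicate 1, were well above them. Daam1 rose by 0.75 (log2; SE 0.10, limma adjusted p = 6.42e-04), with a 95% interval of 0.54 to 0.97. Its 2 other, dimmer probe sets had changes of -0.13 and 0.03, and with the 3 averaged the change was 0.22 (adjusted p = 0.132).

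The diaphanous formins, which promote stress fibres and filopodia, did not move together. Diaph2 read 7.93, 8.12 and 7.71 on unstretched and 7.45, 7.48 and 7.29 on stretched arrays, so that every stretched array lay below every unstretched array. It fell by 0.52 on the log2 scale (SE 0.11, limma adjusted p = 0.0112), with an adjusted p of 0.0522 without stretched replicate 3. Diaph1 read 8.51, 8.65 and 8.47 against 8.88, 8.91 and 8.78, a rise of 0.31 (SE 0.09, limma adjusted p = 0.0363). Diaph3 read 5.87, 5.77 and 5.55 against 6.42, 6.06 and 6.09, a rise of 0.46 (SE 0.12, limma adjusted p = 0.0252), with stretched replicate 1 the highest. In both the stretched arrays lay above all unstretched arrays, the opposite of Diaph2. The change of Diaph1 exceeded that of Diaph2 by 0.83 (SE 0.07), and Diaph2 minus Diaph3 changed by -0.98 (SE 0.14), each at an exact permutation p of 0.1. Diaph1 lost its call when unstretched replicate 1 (adjusted p = 0.0913) or 3 (0.0861) was left out, or stretched replicate 1 (0.121), 2 (0.124) or 3 (0.0579), with quantile normalization again (0.108), cyclic loess (0.0927) and averaged probe sets (0.0972). Diaph3 lost its call when stretched replicate 1 (adjusted p = 0.101) or unstretched replicate 2 (0.0567) or 3 (0.0683) was left out.

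Fmnl2, a formin of lamellipodia and filopodia that acts downstream of Cdc42, read 9.54, 9.71 and 9.67 on unstretched and 9.32, 9.16 and 9.19 on stretched arrays. It fell by 0.42 on the log2 scale (SE 0.09, limma adjusted p = 0.0106) and passed in all 16 alternatives. Enah (Mena), an Ena/VASP protein that shields barbed ends from capping, read 11.50, 11.58 and 11.62 against 12.03, 12.10 and 12.32. Stretched replicate 3 was the highest, and all 3 stretched arrays lay above the unstretched ones. The log2 change of Enah was 0.58 (SE 0.10, limma adjusted p = 0.00268), and 3 of its 5 other probe sets passed in the same direction, with changes of 0.37, 0.85 and 0.80. Its relative Evl had a change of 0.12 (SE 0.08), and the changes of Enah and Evl differed by 0.46 (SE 0.13, exact permutation p = 0.1).

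**Figure D3:**
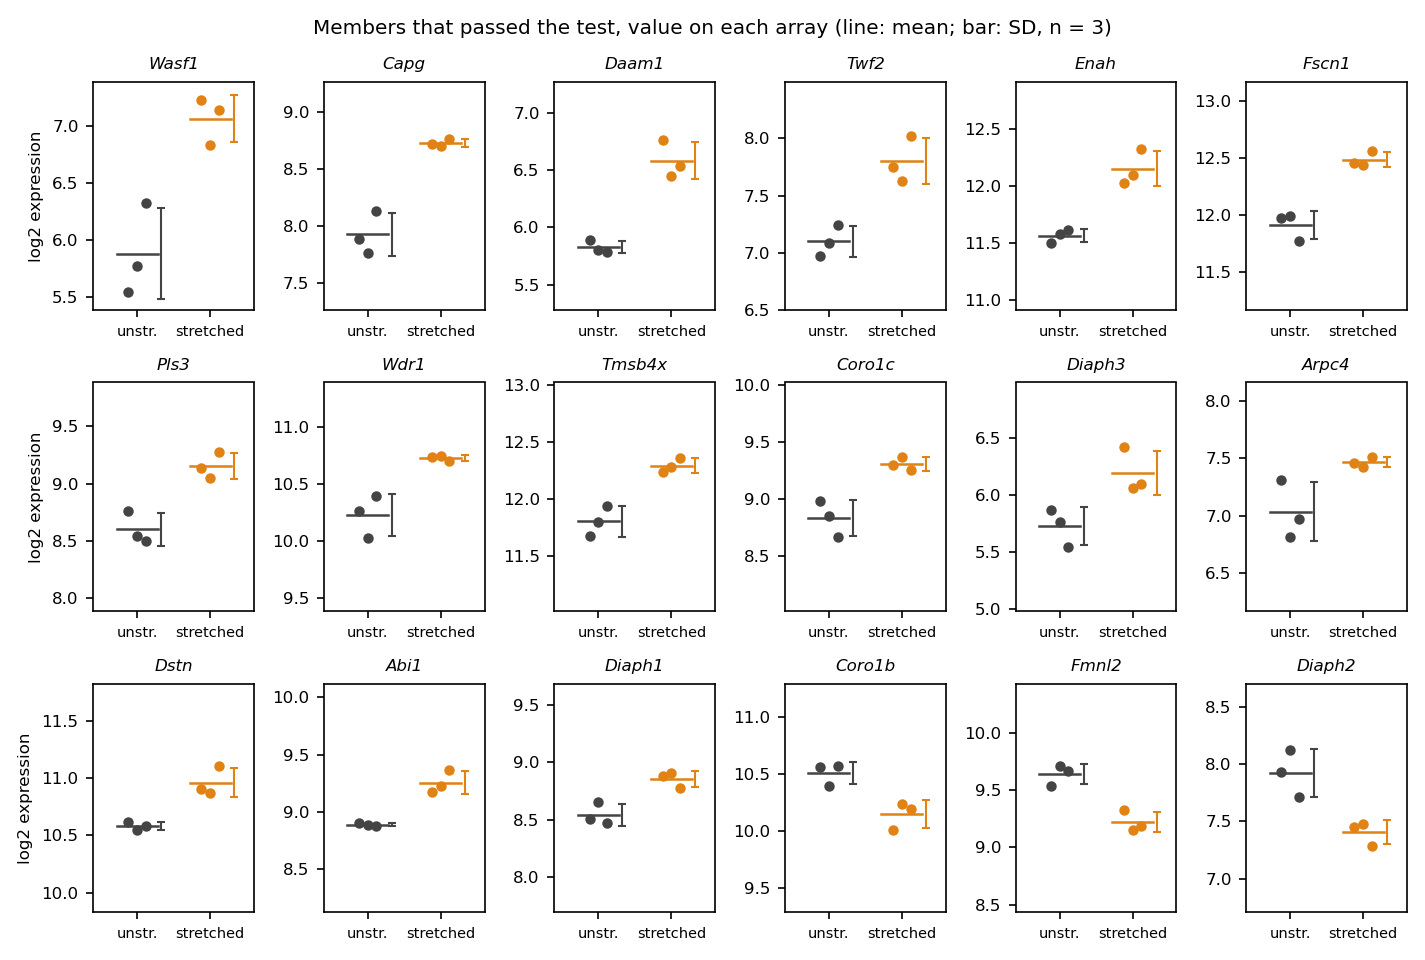
Log2 expression of the 18 genes that passed, on each array, ordered from the largest rise to the largest fall (line, mean; bar, SD, n = 3 arrays; each panel spans 2 log2 units). The genes were chosen by the test on these same arrays, which favours groups that lie apart. In each panel all stretched arrays lie on one side of all unstretched arrays, and Wasf1 shows the widest spread among unstretched arrays.

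Of the proteins that bind actin monomers, 2 of 7 rose and 0 fell in limma. Tmsb4x (thymosin beta 4), the main store of unpolymerized actin in many cells, read 11.68, 11.80 and 11.94 on unstretched and 12.24, 12.28 and 12.36 on stretched arrays. The stretched arrays lay close together above all unstretched ones. The log2 change was 0.49 (SE 0.09, limma adjusted p = 0.00596), and the gene passed in every alternative run. Tmsb10, its close relative, had a change of 0.27 (SE 0.10, adjusted p = 0.0900) in a probe set whose suffix marks probes shared between transcripts; of its other 4 probe sets, 1 passed at 0.85 (adjusted p = 0.00438) and the probe set without such a suffix had -0.23. The change of Tmsb4x exceeded that of Tmsb10 by 0.22 (SE 0.11, exact permutation p = 0.1).

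Twf2 (twinfilin 2), which binds monomers and barbed ends, read 6.97, 7.09 and 7.24 on unstretched and 7.75, 7.63 and 8.02 on stretched arrays. The groups were well apart, and the log2 change was 0.70 (SE 0.12, limma adjusted p = 0.00267). The probe set carries a suffix for probes similar to other sequences, and the gene's other probe set, without it, had a change of 0.39 and did not pass (adjusted p = 0.113 once such probe sets were left out). Pfn1 (profilin 1), which hands monomers to formins, read 7.77, 7.50 and 8.13 on unstretched and 8.14, 8.05 and 8.13 on stretched arrays. Here the groups overlapped, because unstretched replicate 3 was as high as the stretched arrays. The log2 change of 0.31 (SE 0.14, adjusted p = 0.176) did not pass, but was 0.47 without unstretched replicate 3 (adjusted p = 0.0158). Pfn2, Cap1 and Cap2 had changes between -0.02 and 0.06, and Cap2, at a mean of 3.83 on unstretched arrays, was below the median gene.

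Among capping and severing proteins Capg rose and 5 of 6 did not pass. Capg, a gelsolin relative that caps barbed ends without cutting, read 7.88, 7.76 and 8.13 on unstretched and 8.72, 8.70 and 8.76 on stretched arrays. The stretched arrays were nearly equal to each other and clearly above the unstretched ones. Capg rose by 0.80 (log2; SE 0.10, limma adjusted p = 6.10e-04), with a 95% interval of 0.57 to 1.03, and it passed in all 16 alternatives, although a second, dimmer probe set had a change of 0.21 and did not pass, and the average of both had 0.50. Gsn (gelsolin), which cuts and caps, had a change of -0.14 (SE 0.11) in its brightest probe set. Its 5 other probe sets had changes between -0.08 and 0.40 and 0 passed, and the average of all its probe sets had 0.07. In the brightest probe sets the changes of Gsn and Capg differed by -0.94 (Gsn minus Capg, SE 0.08, exact permutation p = 0.1).

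The subunits of capping protein, which works as a heterodimer of an alpha and a beta chain, did not pass in the probe sets that stand for them. Capza1 had a change of 0.16, Capza2 of 0.18 and the beta subunit Capzb of -0.19. All 3 stretched arrays lay above the unstretched arrays in Capza1 and Capza2 and below them in Capzb. Another probe set of Capza1, with a suffix for similar sequences, had a change of 0.79 (adjusted p = 0.00346), and another of Capza2 had 0.45 (adjusted p = 0.0103), whereas the 4 probe sets of Capzb lay between -0.19 and -0.15. With all probe sets averaged Capza1 (0.47, adjusted p = 0.00374) and Capza2 (0.32, adjusted p = 0.0174) passed. Vil1 (villin), the brush border member of the gelsolin family, was below the median gene at 3.51 on unstretched arrays and had a change of 0.19 (SE 0.09).

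Of the bundling genes in the list, Fscn1 and Pls3 rose. Outside the list, the fascin paralog Fscn2 fell (log2 change -0.51, limma adjusted p = 0.00503). Pls1 (0.08) and Espn (-0.12), also outside it, did not pass, and Fscn2, Pls1 and Espn were all below the median gene. Fscn1 (fascin), which packs filaments in filopodia, read 11.98, 11.996 and 11.78 on unstretched and 12.46, 12.44 and 12.56 on stretched arrays. Pls3 (T-plastin) read 8.76, 8.54 and 8.49 against 9.14, 9.05 and 9.27. In both genes all stretched arrays lay above all unstretched arrays. The log2 changes were 0.57 (SE 0.09, limma adjusted p = 0.00224) for Fscn1 and 0.55 (SE 0.10, limma adjusted p = 0.00462) for Pls3, and both passed in every alternative run. Of the 3 other probe sets of Fscn1, 2 passed, at 0.57 and 0.78. Lcp1 (L-plastin), the leukocyte paralog, was below the median gene and had a change of -0.13 (SE 0.10); its other, still dimmer probe set had a change of -0.54 (adjusted p = 0.00495), and the average of both passed (-0.34, adjusted p = 0.0169). The change of Lcp1 minus that of Pls3 was -0.68 (SE 0.20, exact permutation p = 0.1). Of 10 leukocyte markers 3 fell, namely Csf1r, Cd68 and Fcer1g. Their log2 changes were -0.50, -0.89 and -0.49 (limma adjusted p = 0.0106, 7.27e-04 and 0.0147), and Cd68 and Fcer1g were below the median gene. The other leukocyte markers did not pass, and Lyz2 had a change of 0.08. The part of leukocyte genes in the values of Lcp1 was not tested.

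Of the genes that take filaments apart, 3 of 7 rose, 1 fell and 3 did not pass. Wdr1 (Aip1), which speeds cofilin-driven disassembly, read 10.26, 10.03 and 10.39 on unstretched and 10.74, 10.74 and 10.70 on stretched arrays. The 3 stretched arrays agreed within 0.03 (SD) and lay above the unstretched ones. The log2 change was 0.50 (SE 0.10, limma adjusted p = 0.00813), and its 2 other probe sets also passed, at 0.33 and 0.49. Dstn (destrin, or ADF) read 10.62, 10.55 and 10.58 against 10.90, 10.87 and 11.11, with stretched replicate 3 the highest. Its log2 change was 0.38 (SE 0.09, limma adjusted p = 0.0186), and it lost the call when unstretched replicate 2 (adjusted p = 0.0573) or stretched replicate 3 (0.0768) was left out and with quantile normalization again (0.0536).

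The other ADF/cofilin genes did not pass. Cfl1, the cofilin of most non-muscle cells, had a change of 0.21 (SE 0.08, adjusted p = 0.113), with the same 0.21 in its second probe set, and it passed with a trended, robust prior (adjusted p = 0.00778). Cfl2, the cofilin typical of muscle, had a change of -0.06 (SE 0.08) in its brightest probe set but 0.67 (adjusted p = 0.00165) in a dimmer one, and the average of its 3 probe sets had 0.13. The changes of Cfl2 and Dstn differed by -0.44 (Cfl2 minus Dstn, SE 0.10, exact permutation p = 0.1), whereas those of Cfl1 and Dstn differed by -0.16 (SE 0.11, exact permutation p = 0.3).

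Coronins, which act with cofilin and the Arp2/3 complex, moved in opposite directions. Coro1b read 10.56, 10.39 and 10.57 on unstretched and 10.01, 10.24 and 10.20 on stretched arrays, a fall of 0.36 on the log2 scale, with stretched replicate 1 the lowest (log2 change -0.36, SE 0.10, limma adjusted p = 0.0282). Coro1c read 8.99, 8.85 and 8.67 against 9.30, 9.37 and 9.25, a rise of 0.47 (SE 0.10, limma adjusted p = 0.00917). The groups did not overlap in either gene. The change of Coro1b minus that of Coro1c was -0.83 (SE 0.14, exact permutation p = 0.1). The Coro1c probe set has a suffix for shared probes, and a second one without it also passed, at 0.80. The remaining probe sets of Coro1c, dimmer and also without the suffix, had changes of 0.02 and 0.01 and did not pass. The Coro1b call ended without unstretched replicate 1 (adjusted p = 0.0785) or 3 (0.0677) and without stretched replicate 1 (0.122) or 3 (0.0622). Coro2b, which is enriched in podocytes and neurons, overlapped between groups and had a change of -0.23 (SE 0.14).

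None of the 5 genes that set the phosphorylation of cofilin passed (limma, with 3 of 5, the slingshot genes, at an unadjusted p under 0.05). The slingshot phosphatase genes split in sign, with changes of 0.27 for Ssh1, -0.23 for Ssh2 and -0.23 for Ssh3. The change of Ssh1 exceeded that of Ssh2 by 0.51 (SE 0.10) and that of Ssh3 by 0.50 (SE 0.14), each at an exact permutation p of 0.1. Single alternatives carried them past the threshold: Ssh2 under quantile normalization again (adjusted p = 0.0450), Ssh3 without unstretched replicate 2 (0.0484), and a second probe set of Ssh1 (0.30, adjusted p = 0.0429). The kinase genes Limk1 and Limk2 had changes of 0.03 (95% interval -0.16 to 0.22) and 0.10 (-0.24 to 0.43).

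The difference between the changes of 2 paralogs was computed for 22 pairs, several of which share a gene. After Benjamini-Hochberg adjustment over the pairs 0 of 22 passed, with 0.157 as the lowest adjusted exact permutation p, and a design of 3 against 3 arrays could not have passed. The gaps between paralogs are therefore given as values. They were read in the probe sets that stand for the genes. The widest gaps were those of Wasf1 and Wasf2, Diaph2 and Diaph3, Gsn and Capg, Coro1b and Coro1c, and Diaph1 and Diaph2. Among the pairs with the smallest gaps, Capza1 and Capza2 differed by -0.03 (SE 0.06) and Ssh2 and Ssh3 by -0.002 (SE 0.11).

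**Figure D4:**
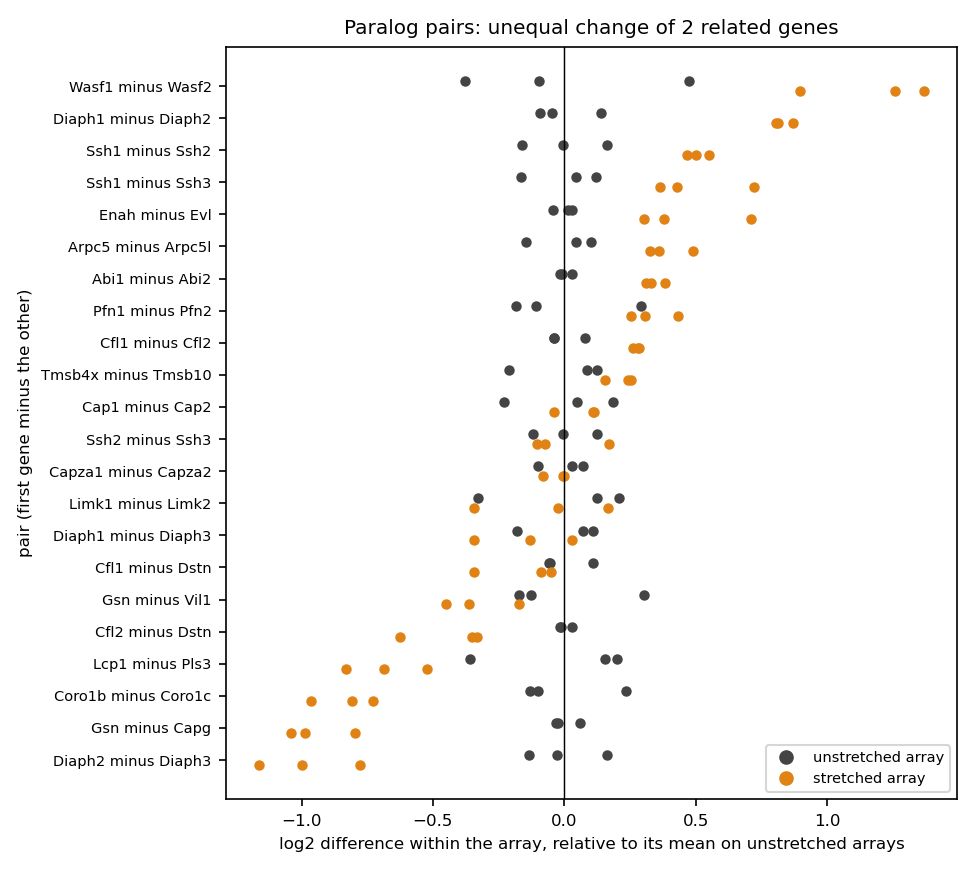
For 22 pairs of paralogs, the log2 difference between both genes on each array, relative to its mean on unstretched arrays (grey, unstretched; orange, stretched). Diaph1 minus Diaph2 shifts by 0.83 and Diaph2 minus Diaph3 by -0.98, while Ssh2 minus Ssh3 shifts by -0.002.

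Different probe sets of a gene did not always give the same answer. Of the 47 genes, 35 had more than 1 probe set and 118 probe sets were read in all; over every named probe set on the array, 13.1% passed. Of the 11 genes that passed and had another probe set, 5 had another that passed the same way (Abi1, Enah, Fscn1, Wdr1 and Coro1c) and 0 had one that passed the opposite way (limma over all named probe sets). Of the 24 genes that did not pass and had another probe set, 8 had one that did: Actr3, Wasl, Tmsb10, Capza1, Capza2, Cfl2 and Ssh1 higher and Lcp1 lower. The brightest probe set of Actr3, a core subunit of the Arp2/3 complex, had a change of -0.004, and its dimmest had 0.40 (adjusted p = 0.0150).

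**Figure D5:**
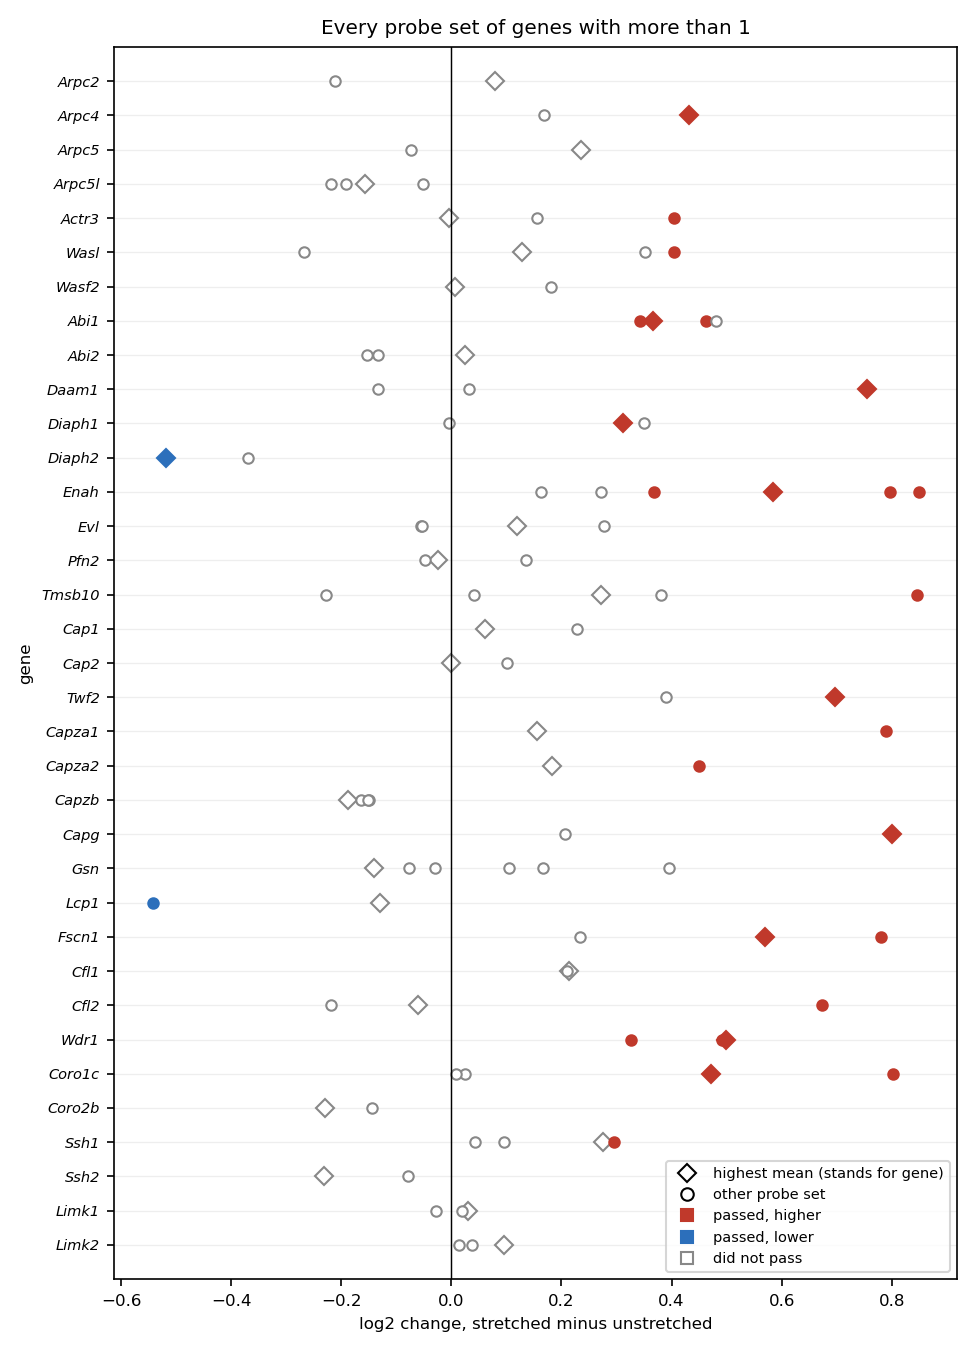
Log2 change of each probe set of the 35 genes with more than 1 (diamond, the probe set with the highest mean, which stands for the gene; circle, any other; filled, passed over all named probe sets). Enah, Wdr1 and Abi1 have several filled symbols on the same side, while Cfl2 and Capza1 have an open diamond and a filled circle.

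Other genes of the same machinery, from a list of 86 of which 77 were measured, were called as often in one direction as in the other: 11 rose, 11 fell and 55 did not pass (limma, adjusted over all genes), with a median log2 change of -0.005. Beside them, the share of all genes called was 14.7%. The 12 with the largest moderated statistics included the formins Fmn1, which rose by 1.03 (SE 0.14), and Fhod1, which rose by 0.48 (SE 0.09). Fmn1, at a mean of 4.94 on unstretched arrays, was below the median gene. Vasp, the third Ena/VASP protein, rose by 0.79 (SE 0.12), and Wipf1, which stabilizes WASP proteins, rose by 0.67 (SE 0.11). Mical2, which oxidizes actin, rose by 0.72 (SE 0.08), whereas its relative Mical3 fell by 0.71 (SE 0.12). The drebrin gene Dbn1 rose by 0.65 (SE 0.11) and the Cdc42 effector gene Cdc42ep1 rose by 0.62 (SE 0.09).

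The other 4 of those 12 fell. Washc2, a subunit of the WASH complex that activates the Arp2/3 complex on endosomes, fell by 0.56 (SE 0.08), and Coro7, a coronin of the Golgi, fell by 0.55 (SE 0.09). Ablim1 fell by 0.77 (SE 0.09) and Baiap2 (IRSp53), which links Rac to WAVE at the membrane, fell by 0.43 (SE 0.08); the Baiap2 call ended with probe sets averaged (-0.19, adjusted p = 0.142). Averaging also moved Ablim1 to -0.34, Fmn1 to 0.58 and Cdc42ep1 to 0.36, and these still passed. Outside the 12 and chosen after their values were seen, 2 further WASH subunit genes, Washc1 (log2 change -0.40, limma adjusted p = 0.0171) and Washc5 (-0.39, 0.0118), also fell, and so did Arpin (-0.49, 0.00822), an inhibitor of the Arp2/3 complex. Washc4, the other WASH subunit measured, had a change of 0.19 (adjusted p = 0.244). The Washc1 call ended without unstretched replicate 1 (adjusted p = 0.0580), without stretched replicate 2 (0.0560) or 3 (0.0741), and with averaged probe sets (0.215).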

How the data were processed

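RNA of 3 stretched and 3 unstretched samples of SVI podocytes was read on mouse expression arrays. The authors deposited log2 values made with RMA, per the submitters' processing notes; the version of RMA is not given in the sources used here. The series text does not say whether arrays of a group came from separate cultures. Control probe sets were left out, 34945 probe sets with 1 gene symbol were kept, and the probe set with the highest mean stood for each of 18193 genes. Of these probe sets 34741 matched the RefSeq table (GRCm38.p6), and 0 symbols changed. Stretched and unstretched arrays were compared with limma 3.58.1 in R 4.3.3 (lmFit, eBayes), without a filter, and p-values were adjusted over all genes (Benjamini-Hochberg, threshold 0.05). Differences between paralogs were tested by two-sided exact permutation over arrays. The scripts were tested on simulated data. The genes and lists were chosen with earlier results of these data known. Every gene of the list that passed is described, and of the other actin genes the 12 with the largest moderated statistics among those that passed. Alternatives were other scalings, priors, probe set rules, a filter on dim genes, a replicate block and leaving out each array. The number of arrays limits the precision.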

Additional observations from a re-analysis of the deposited data

How the results depend on the processing

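The 18 genes that passed kept their direction in all 16 alternatives, and 9 of them passed in each (Wasf1, Fmnl2, Enah, Tmsb4x, Capg, Pls3, Fscn1, Wdr1 and Coro1c). Direction could not change in fits that altered only the prior, the replicate block or the genes tested, which kept the same values. Nor could it change without single arrays, because the groups of these genes did not overlap. Leaving out each array in turn gave 11 to 14 of the 47 genes called higher and 1 to 4 lower, and over all genes 872 to 1450 called higher and 767 to 1189 lower. The counts that fell by over 1.5 times were those without stretched replicate 1 (872 higher and 789 lower), 2 (780 lower) and 3 (767 lower, and 1 of the 47 genes, Fmnl2, lower). Leaving out probe sets with shared or similar probes was chosen after seeing the data. Whether replicate numbers pair the arrays could not be told from the values. Deviations of arrays with the same number correlated at 0.018, 0.148 and 0.285, and those with different numbers at -0.242 to 0.114. Replicates 2 and 3 correlated best with their own number. Unstretched replicate 1 correlated best with stretched replicate 2 (0.114), and stretched replicate 1 with unstretched replicate 2 (0.058). With the replicate block 16 of the 47 genes were called higher and 3 lower, and 1683 and 1419 of all genes; Ssh1 passed (adjusted p = 0.0465). The cause of these shifts was not tested. Genes below the median level, such as Cap2 and Vil1, are limited by signal over background.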
